A study of Homo sapiens with 36 samples.

Results

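Translational efficiency, the ribosome footprint signal of a gene relative to its RNA, was compared between actinomycin D and vehicle after 2 weeks in WiT49, a human cell line from an anaplastic Wilms tumor, the embryonal kidney cancer of childhood. The members are the 12 libraries of the 2-week RNA and footprint tables, of 36 in the series, with 3 libraries per assay and treatment. Cells passed through 2 cycles of 7 days, each with 3 days in medium carrying 2 nM actinomycin D (actD) or DMSO and 4 days in plain medium, so that every 2-week group ended in drug-free medium. Both groups were grown in the same medium, RNA libraries were stranded and made from total RNA, and footprint libraries were small RNA libraries depleted of ribosomal RNA. All groups come from 1 cell line, and the labels do not say whether libraries of a group came from separate cultures, so p-values measure the spread between libraries, which may be technical. Of 43582 genes in both tables, 1441 held enough counts in both assays to be tested, and 1325 of these were protein-coding.

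The labels of the 6 RNA libraries contradict each other. The library names, which head the columns of the count table, call 3 libraries dmso and 3 actd, while the titles and treatment entries of the same libraries give the opposite. The 6 footprint libraries carry no such conflict. RNA treatment was taken from the library names throughout, values under the titles are given for the counts, for the genes called under them that are named here, for described lists whose median moved by over 0.2 and, here or in the closing section, where the direction of a named gene turned, and "named actd" or "named dmso" marks an RNA group.

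Actinomycin D binds DNA and at low doses blocks RNA polymerase I, the enzyme that makes ribosomal RNA, and so limits the supply of new ribosomes. Ribosome profiling sequences the mRNA pieces that ribosomes protect from nuclease, so footprints count ribosomes on a message, and their ratio to RNA describes how densely a message is loaded. Messages for ribosomal proteins and elongation factors begin with a run of pyrimidines, the TOP motif, through which mTOR signaling controls their translation, and proteasome subunits, chaperones and mitochondrial proteins are other groups often followed when protein synthesis is disturbed.

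The RNA libraries held 49795865 to 59091446 counts and the footprint libraries 581392 to 1093427. Only 6.25% to 9.39% of footprint counts lay in protein-coding genes, 50343 to 82002 counts per library, while small nuclear RNA took 46.3% to 64.8%. The protein-coding counts include MTRNR2L12 (2448 to 8465 per library) and MTRNR2L1 (267 to 1908). These are nuclear copies of mitochondrial ribosomal RNA that may share its reads. The median tested protein-coding gene had 13 to 22 footprint counts in a library, against 4075 to 5382 in RNA. The share of mitochondrial ribosomal RNA was 28.7% ± 2.72 in named actd and 21.3% ± 1.64 in named dmso RNA libraries, and 5.67% ± 0.571 and 3.55% ± 0.468 in actD and DMSO footprint libraries (SD, n = 3), without overlap in either assay (exact permutation test, two-sided, p = 0.1 in each, the smallest that 3 against 3 libraries allow). Its part in the results was not tested. Of the Wilms tumor markers, WT1 had 1368 to 2026 RNA counts per library and IGF2 53950 to 87381, while SALL1 had 0 to 10, EYA1 0 to 15 and SIX2 9 to 31. Of 4 epithelial markers, keratin 8 and keratin 18 RNA was abundant, with at least 29566 and 34270 counts. EPCAM had 308 to 433 RNA counts and CDH1 34 to 98. Of 11 markers of other cell types, none was tested, and the blood and endothelial markers CD3E, HBB, PECAM1 and CDH5 were at 0 in all RNA libraries, as was MYOG of muscle. PTPRC reached 8 counts, VWF and ALB 4 each, CD68 had 28 to 73, and of the muscle markers DES had 448 to 578 and MYH3 6 to 69, all with 0 footprint counts.

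No gene passed the test for a change in translational efficiency at 2 weeks. Of 1441 genes, 0 (0%) had an adjusted p under 0.05 by edgeR's quasi-likelihood test of the assay-by-treatment interaction, with a smallest adjusted p of 0.879. An unadjusted p under 0.05 was found for 74 genes (5.14%), 39 higher and 35 lower in actD, and for 59 of the 1325 protein-coding genes (4.45%). DESeq2 called 1 gene, PABPC1, and limma-voom 0. The efficiency change was centered near 0: 692 genes (48%) lay above 0, the median was -0.02 on the log2 scale, and protein-coding genes had an SD of 0.47 around a median standard error (SE) of 0.37. Among protein-coding genes, 49 (3.7%) had a change of more than 1 log2 unit in either direction. When libraries were scaled by their totals alone, without TMM factors, the median of all genes moved by 0.29 and the 74 genes became 122, of which 113 were higher.

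By edgeR with TMM scaling, neither assay alone gave a called gene. In footprints, 0 of 1598 genes were called by edgeR, 137 had an unadjusted p under 0.05 (65 higher and 72 lower), and DESeq2 called 0. In RNA, 0 of 21137 genes were called by edgeR with a smallest adjusted p of 0.0669, and 845 genes were higher and 1043 lower in named actd at an unadjusted p under 0.05. DESeq2 called 198 genes in RNA. Of the 1441 genes, 213 (14.8%) had actD and DMSO footprint values that did not overlap, and 305 (21.2%) had RNA values of the named groups that did not overlap.

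Footprint and RNA changes tended to point the same way when RNA was taken by library name. Over the 1325 protein-coding genes, 911 (68.8%) had the same sign in both assays, Pearson's r was 0.505 and Spearman's rho 0.560. These describe genes of the same 12 libraries, which are not independent replicates, and both coefficients turn negative under the titles. Footprint changes were the wider of the distributions, with an SD of 0.542 against 0.312 for RNA on the log2 scale. The level of efficiency itself, which differs widely between genes, had an r of 0.881 between DMSO and actD across protein-coding genes.

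**Figure D1:**
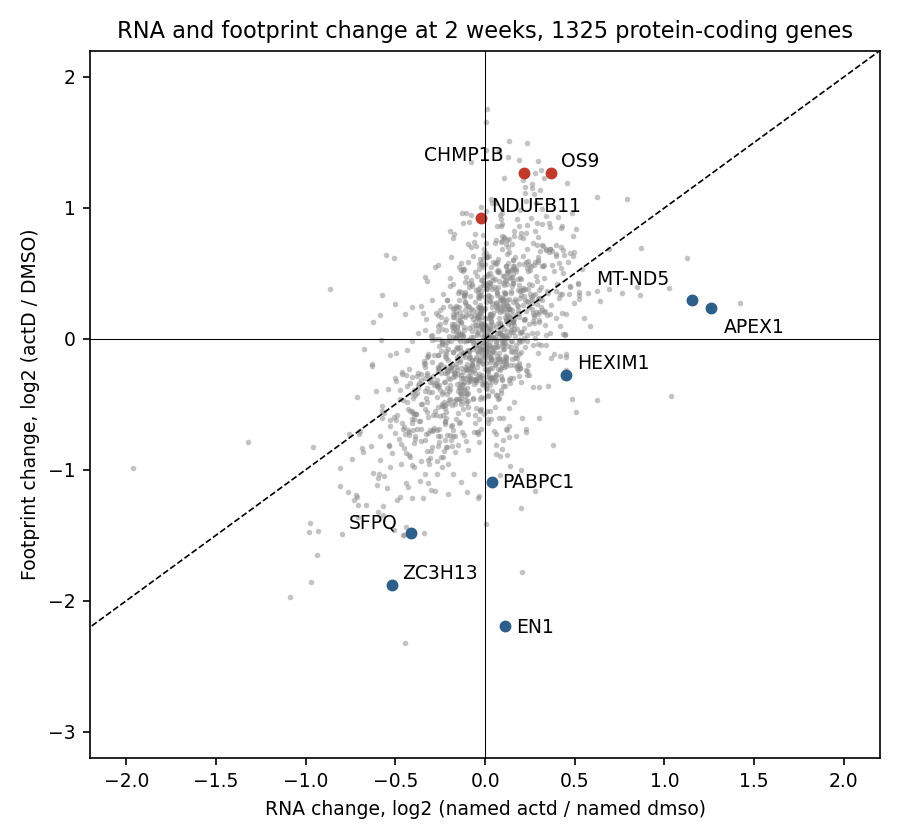
Log2 RNA change (named actd over named dmso, horizontal) against log2 footprint change (actD over DMSO, vertical) for the 1325 protein-coding genes tested, 1 point per gene, with 2 genes outside the axes. The dashed line marks equal change in both assays, so red labelled genes above it have higher and blue ones below it lower efficiency in actD. The cloud runs along the diagonal, APEX1 and MT-ND5 lie to the right with RNA changes over 1, and EN1, ZC3H13 and PABPC1 lie far below the line.

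Under the titles, the same counts gave 27 called genes (1.87%), 5 higher and 22 lower, and 299 genes (20.7%) with an unadjusted p under 0.05. The SD of efficiency changes over protein-coding genes was then 0.75. The 5 higher genes were APEX1 (1.49), OS9 (1.63), LRIG2 (1.56), NECTIN2 (1.33) and APOE (1.27), on the log2 scale. The lower genes included CKAP5, a microtubule-binding protein of the spindle (-3.06; edgeR adjusted p = 0.0101), the chromatin remodeler CHD4 (-2.59; edgeR adjusted p = 0.0101), and the proliferation marker MKI67 (-1.97; edgeR adjusted p = 0.0217). Under the library names these 3 genes had efficiency changes of -0.88, -0.72 and -0.95. Every result below that is not marked as under the titles uses the library names.

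Among the protein-coding genes with a mean of at least 20 footprint counts, the smallest unadjusted p-values for higher efficiency belonged to histone H4 genes, a respiratory chain subunit and a ribosomal protein. NDUFB11, an accessory subunit of respiratory complex I, had 64.2, 88.9 and 61.4 footprint CPM (counts relative to the TMM-scaled sum over the tested genes) in actD and 50.8, 31.7 and 33.5 in DMSO. All 3 actD libraries lay above all 3 DMSO libraries, while RNA averaged 213 ± 9.45 CPM in named actd and 216 ± 13.7 in named dmso (SD, n = 3). Its efficiency was 0.95 higher in actD on the log2 scale (SE 0.28; unadjusted p = 0.00597; edgeR adjusted p = 0.879), which did not pass the test. The gene lies at chrX:47142216-47145504 of hg38.

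HIST1H4K, one of many genes that encode the same histone H4 protein, had 128, 173 and 209 footprint CPM in actD and 105, 81.3 and 104 in DMSO. The groups did not overlap, and the efficiency difference was 1.02 (SE 0.31; unadjusted p = 0.00591; edgeR adjusted p = 0.879). HIST1H4A and HIST1H4J gave 0.81 and 0.97. Reads of these near-identical genes can be split between copies, so the 3 values are uncertain as values of single genes.

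FAU, which encodes a ubiquitin-like protein fused to the small-subunit ribosomal protein eS30, had 93.8, 98.8 and 110.6 footprint CPM in actD and 64.4, 67.4 and 70.3 in DMSO. The groups were apart and each was narrow, and RNA averaged 212 ± 16.0 CPM in named actd and 215 ± 19.4 in named dmso (SD, n = 3). The efficiency difference was 0.60 (SE 0.22; unadjusted p = 0.0179; edgeR adjusted p = 0.879). OS9, a lectin of the degradation pathway of the endoplasmic reticulum, gave 0.90, the splicing-factor-binding mitochondrial protein C1QBP 0.76, the DNA end-binding protein XRCC6 0.66, the endosomal sorting protein CHMP1B 1.05 and C11orf58 0.80. None of them passed the test.

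The smallest unadjusted p-value for lower efficiency at the same depth belonged to ZC3H13, a subunit of the complex that writes N6-methyladenosine on mRNA. It had 42.0, 27.2 and 15.4 footprint CPM in actD and 102, 117 and 97.0 in DMSO. Every actD library lay under every DMSO library, and RNA was also lower, at 69.6 ± 16.1 CPM in named actd against 99.6 ± 7.43 in named dmso (SD, n = 3). The efficiency difference was -1.36 (SE 0.37; unadjusted p = 0.00313; edgeR adjusted p = 0.879), and -2.40 under the titles, where it was called (edgeR adjusted p = 0.0101). The gene lies at chr13:45954465-46052759 of hg38.

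PABPC1, the cytoplasmic poly(A)-binding protein and itself the product of a TOP message, had 126, 79.0 and 64.5 footprint CPM in actD and 173, 190 and 214 in DMSO. The groups did not overlap, whereas RNA was 678 ± 41.2 CPM in named actd and 660 ± 57.5 in named dmso (SD, n = 3). The efficiency difference was -1.13 (SE 0.33; unadjusted p = 0.00534; edgeR adjusted p = 0.879) and -1.05 under the titles. PABPC1 RNA differed by 0.04 on the log2 scale between the named groups, so both readings of the labels gave nearly the same value. It was the gene that DESeq2 called (-1.12; DESeq2 adjusted p = 0.0150). Its relative PABPC4 gave -0.86, and -1.46 under the titles, where it was called (edgeR adjusted p = 0.0274).

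EN1, a homeodomain transcription factor, had the lowest efficiency value of the named genes, at -2.31 (SE 0.67; unadjusted p = 0.00497). Its footprint values were 42.0, 29.6 and 9.21 CPM in actD and 40.7, 210 and 117 in DMSO, so that 1 DMSO library lay among those of actD and the DMSO spread was wide. SFPQ, a paraspeckle and splicing protein, had 91.3, 29.6 and 30.7 footprint CPM in actD and 159, 143 and 127 in DMSO, with an efficiency difference of -1.07 (unadjusted p = 0.0409). HNRNPC, which coats nascent transcripts, also gave -1.07, PRRC2C, a large stress-granule protein, -0.72, and PBRM1, a subunit of the PBAF chromatin remodeler, -0.59. Under the titles, PRRC2C (-1.45; edgeR adjusted p = 0.0293) and PBRM1 (-1.68; edgeR adjusted p = 0.0101) were called. GAPDH, the glycolytic dehydrogenase, gave -1.12 (SE 0.53; unadjusted p = 0.0549) with footprint values of 64.2, 66.7 and 101 CPM in actD and 220, 69.4 and 191 in DMSO, which overlapped.

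APEX1 and HEXIM1 had RNA groups that did not overlap and footprint groups that did. APEX1, the endonuclease of base excision repair, had 173, 127 and 113 RNA CPM in named actd and 48.9, 55.9 and 67.9 in named dmso, and the groups were well apart. Its footprints were 108.6, 116 and 144 CPM in actD and 98.2, 87.3 and 131 in DMSO, which overlapped. The efficiency difference was -1.02 (SE 0.32; unadjusted p = 0.00720) by library name and 1.49 under the titles (edgeR adjusted p = 0.0376), so its direction rests on the labels. HEXIM1, the inhibitor of the transcription elongation factor P-TEFb, had 80.5, 80.9 and 84.0 RNA CPM in named actd and 57.6, 58.5 and 63.2 in named dmso, and an efficiency difference of -0.73, which was 0.18 under the titles.

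**Figure D2:**
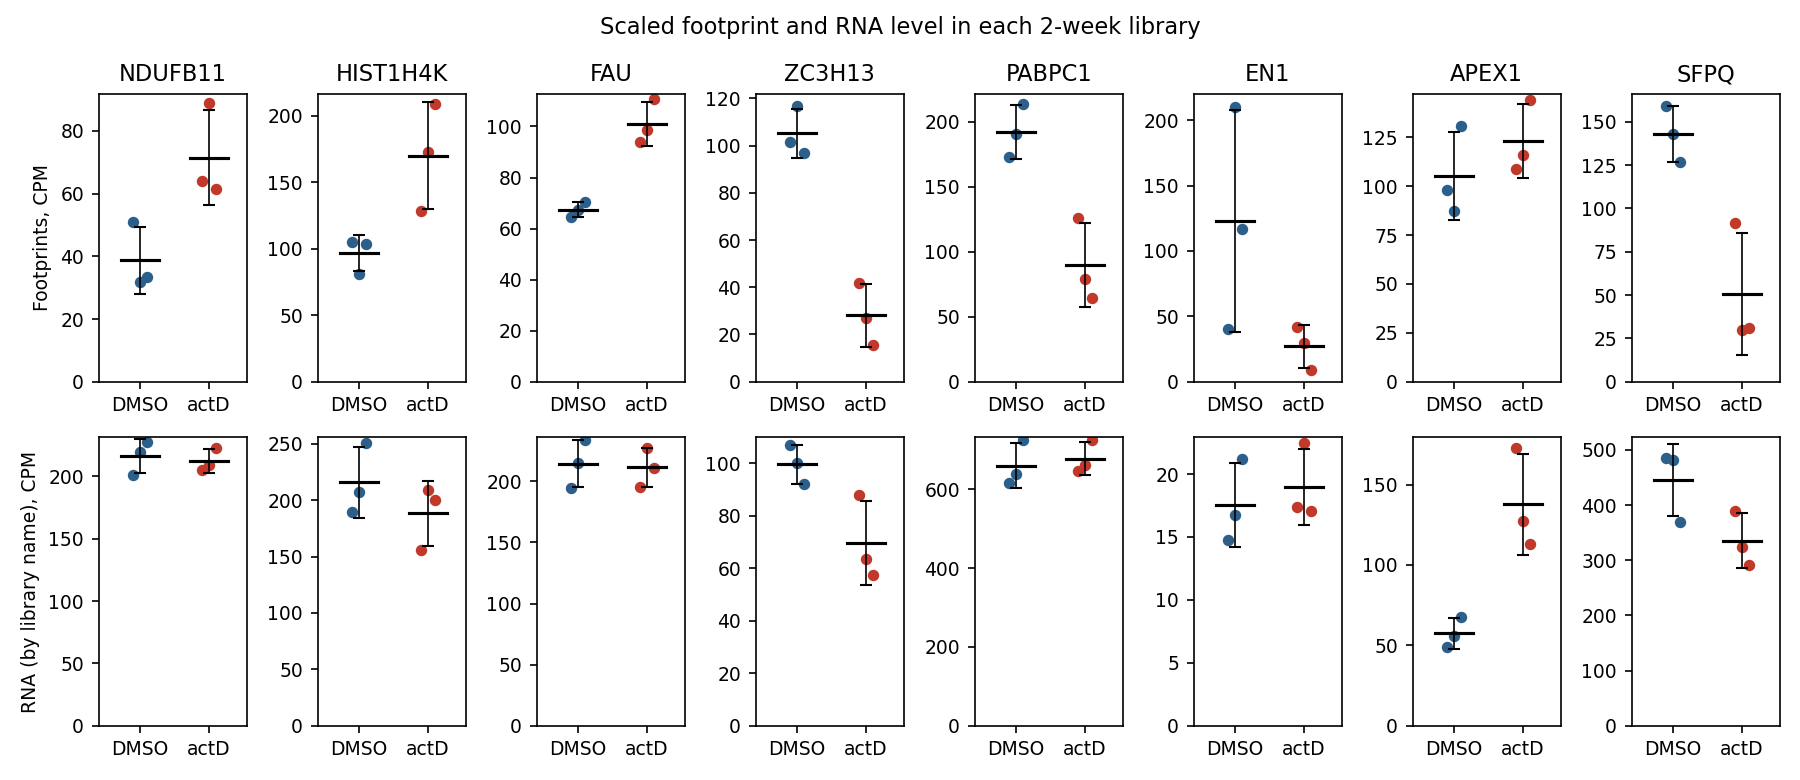
Footprint level (upper row) and RNA level by library name (lower row) of 8 genes in each 2-week library, in CPM on axes that start at 0, with DMSO in blue and actD in red, bars at the mean of 3 libraries and error bars of 1 SD. NDUFB11, HIST1H4K and FAU have higher footprints in all actD libraries with overlapping RNA, ZC3H13, PABPC1 and SFPQ have lower footprints, EN1 overlaps in 1 DMSO library, and APEX1 separates in RNA only.

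Gene lists were described by their counts and medians beside those of all 1441 genes, of which 48% were higher in actD with a median of -0.02. Ribosomal proteins, which form the 2 subunits of the ribosome, were spread on both sides of 0, with 0 called genes in either subunit. Of 21 large-subunit genes tested, 8 were higher and 13 lower, with a median of -0.03, values from -0.45 to 0.65 and 0 genes under an unadjusted p of 0.05. Of 15 small-subunit genes, 10 were higher and 5 lower, with a median of 0.23, values from -0.88 to 1.38, and 1 gene, FAU, under 0.05. RPS13 gave 1.38 (SE 1.08) and RPS23 0.78, against -0.67 for RPS25. Of the large-subunit genes, RPL3, which lies near the peptidyl transferase center, gave -0.43. Leaving out single libraries moved the small-subunit median between -0.04 and 0.46, and the large-subunit median between -0.26 and 0.26.

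The start of these messages carries the TOP motif, here taken as a C at the annotated RefSeq start followed by at least 4 C or T on the transcript strand. Of the tested protein-coding genes, 1091 matched a RefSeq promoter by symbol or a unique older symbol, and 90 of them (8.25%) held the motif, against 1104 of all 27305 promoters (4.04%). Of 25 matched ribosomal protein genes 19 held it, and of 12 other TOP genes 9. The first 20 bases (GRCh38.p14) are shown for genes with efficiency values on both sides of 0, with the run from the initial C in capitals, and RPL3 falls just short of the rule.
FAU, chr11:65122115-65122134, minus strand: CTCTTTCTCgactccatctt
RPS13, chr11:17077648-17077667, minus strand: CCTTTCgttgcctgatcgcc
RACK1, chr5:181243887-181243906, minus strand: CTCTCTTTCactgcaaggcg
EEF1A1, chr6:73521013-73521032, minus strand: CTTTTTCgcaacgggtttgc
EEF2, chr19:3985444-3985463, minus strand: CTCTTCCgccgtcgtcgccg
RPS25, chr11:119018324-119018343, minus strand: CTTTTTgtccgacatcttga
RPL3, chr22:39319604-39319623, minus strand: CTCTaccggcgggatttgat

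Genes with the motif had a median efficiency change of 0.07, with 50 of 90 higher, and those without it -0.02. Without ribosomal proteins, the 71 remaining motif genes had a median of 0.04. Among the sequences shown, FAU gave 0.60, RPS13 1.38, RACK1, a scaffold protein of the small subunit, 0.58, EEF1A1, the elongation factor that delivers aminoacyl-tRNA, 0.27, EEF2, the translocation factor, -0.28, RPS25 -0.67 and RPL3 -0.43. The genes shown thus lay on both sides of 0, none passed the test, and the SE was 1.08 for RPS13, 0.69 for EEF1A1, 0.36 for EEF2 and 0.45 for RPL3. In DMSO, the efficiency level (log2 footprint CPM minus log2 RNA CPM) had a median of -2.31 in genes with the motif and -1.77 in those without. It was -4.55 for large-subunit and -4.26 for small-subunit ribosomal proteins. Whether footprints of these genes were recovered and assigned as fully as those of others was not tested. The other TOP messages, 13 tested, gave a median of -0.01 with 6 higher, and their members under an unadjusted p of 0.05 pointed in opposite directions: PABPC1 at -1.13 and TPT1, a growth-related tubulin-binding protein, at 1.12.

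Translation factors were spread around 0 or below. Of 17 initiation factors, 6 were higher and 11 lower, with a median of -0.18. The start-codon selection factor EIF1 gave 0.29, the eIF3 subunit EIF3C -0.61, and the 2 members under an unadjusted p of 0.05 were PABPC1 and PABPC4. Of 6 elongation and release factors, 3 were higher, with a median of 0.04.

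The proteasome, which degrades ubiquitinated proteins, had 12 of 15 tested subunits higher and 3 lower in efficiency, with a median of 0.15, and 1 subunit under an unadjusted p of 0.05. That subunit was ADRM1, a ubiquitin receptor of the regulatory particle, with 37.0, 39.5 and 27.6 footprint CPM in actD and 23.7, 25.8 and 13.4 in DMSO. The groups did not overlap in CPM, but the counts behind them were low, 15, 16 and 9 in actD and 7, 13 and 4 in DMSO, and overlapped before scaling. The efficiency difference of ADRM1 was 0.78 (SE 0.31; unadjusted p = 0.0355; edgeR adjusted p = 0.879). Of the core particle, PSMB1 had the highest value, 1.74 (SE 1.23; unadjusted p = 0.182), but was listed at 0 in 1 of 3 actD and 2 of 3 DMSO footprint libraries, with 49, 50 and 32 counts in the others. PSMB5 gave 0.51, PSMB4 0.38, PSMA1 0.36, PSMA3 0.27, PSMA6 0.02 and PSMA4 -0.28. Of the regulatory particle, PSMD2 gave 0.28, PSMD6 and PSMD7 0.15 each, PSMC5 0.14, PSMD4 0.08, PSMD13 -0.02 and PSMD1 -0.32. RNA and footprints of the list had medians of 0.11 and 0.34. The list median was 0.49 without DMSO replicate 3 of the footprints and 0.02 at the lowest when other libraries were left out.

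Nuclear-encoded respiratory chain genes had 14 of 16 members higher, with a median of 0.38 and 2 members, NDUFB11 and NDUFA10 (0.65), under an unadjusted p of 0.05. Their footprint median was 0.50 and their RNA median 0.05, and UQCRFS1, the iron-sulfur subunit of complex III, gave 0.67. The 4 tested proteins encoded by mitochondrial DNA, which mitochondrial ribosomes translate, were all lower, with a median of -0.47, with an RNA median of 0.82 and a footprint median of 0.34. MT-ND5 gave -0.85, MT-ND4 -0.53 and MT-CO1 -0.31, with 0 of 4 under an unadjusted p of 0.05. Under the titles the list median was 1.16 and all 4 were higher. RNA of these genes moved with the share of mitochondrial ribosomal RNA given above, whose part in the result was not tested.

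Replication-dependent histones, whose messages end in a stem-loop in place of a poly(A) tail, had 39 of 44 members higher, with a median of 0.42 and 4 members under an unadjusted p of 0.05, namely the 3 H4 genes above and HIST1H2BH (1.03). Footprints were higher for 42 of 44, with a median of 0.39, beside a footprint median of 0.30 in the quartile of shortest coding sequences described below. The copies share sequence, so the members are not independent of each other. Genes for endoplasmic reticulum folding and translocation had 7 of 10 higher, with a median of 0.27, 1 of them, the chaperone HYOU1 (0.89), under an unadjusted p of 0.05. The lumenal chaperones CALR and HSPA5 gave 0.32 and 0.21. Of the list linked to the stress factor ATF4, 6 genes were tested and 4 were higher, with a median of 0.24, and the amino acid transporter SLC38A2 gave 0.67.

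Several lists of nuclear proteins and that of matrix genes also had more members lower than higher. Chromatin remodeling and cohesin genes had 20 of 23 lower, with a median of -0.23 and 0 under an unadjusted p of 0.05, and CHD3 and CHD4 gave -0.75 and -0.72. Of 32 splicing factors, 21 were lower, with a median of -0.19 and 1, SFPQ, under 0.05. Of 9 mitosis and spindle genes, 7 were lower, with a median of -0.09, but the 2 under 0.05 pointed apart, MKI67 at -0.95 and NUMA1, a spindle pole protein, at 1.36. CKAP5 and the condensin subunit SMC4 gave -0.88 and -0.56. Replication and repair genes had 6 of 9 lower, with a median of -0.12, a value of 0.66 for XRCC6 and of -0.53 for the mismatch repair protein MSH6. Matrix and secreted genes had 10 of 14 lower, with a median of -0.12. COL3A1, the collagen with the most footprints, gave 0.12, and the growth factor IGF2 -0.36. Glycolysis was split 5 to 4, from PGK1 at 0.71 to LDHB at -1.17, which was listed at 0 in 2 actD and 1 DMSO footprint libraries. Of 27 p53 targets, 1 was tested. Genes of ribosome biogenesis and RNA polymerase I, the machinery that low-dose actD acts on, were split 6 to 6, with a median of 0.03. Medians of cytosolic and mitochondrial chaperones, cholesterol and fatty acid synthesis, adhesion and actomyosin, and high mobility group and histone chaperone genes lay between -0.03 and -0.01. Those of the 9 aminoacyl-tRNA synthetases and the 7 tubulins and actins were 0.15 and 0.19, with 6 members higher in each. Under the titles, list medians were -0.93 for replication and repair, with 1 of 9 higher, -0.50 for chromatin, -0.45 for mitosis and -0.42 for splicing. They were 0.75 for endoplasmic reticulum folding, 0.65 for nuclear-encoded respiratory chain genes, 0.40 for the proteasome, 0.37 for cholesterol and fatty acid synthesis and 0.25 for high mobility group and histone chaperone genes. The median turned below 0 for aminoacyl-tRNA synthetases (-0.10, 3 of 9 higher), glycolysis (-0.26, 3 of 9 higher), ribosome biogenesis (-0.16, 4 of 12 higher) and elongation factors (-0.01), and above 0 for large-subunit ribosomal proteins (0.04, 12 of 21 higher). When libraries were scaled by totals alone, the medians of the chromatin, splicing, initiation factor, mitosis, replication and matrix lists were above 0, beside the shift of 0.29 in all genes.

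**Figure D3:**
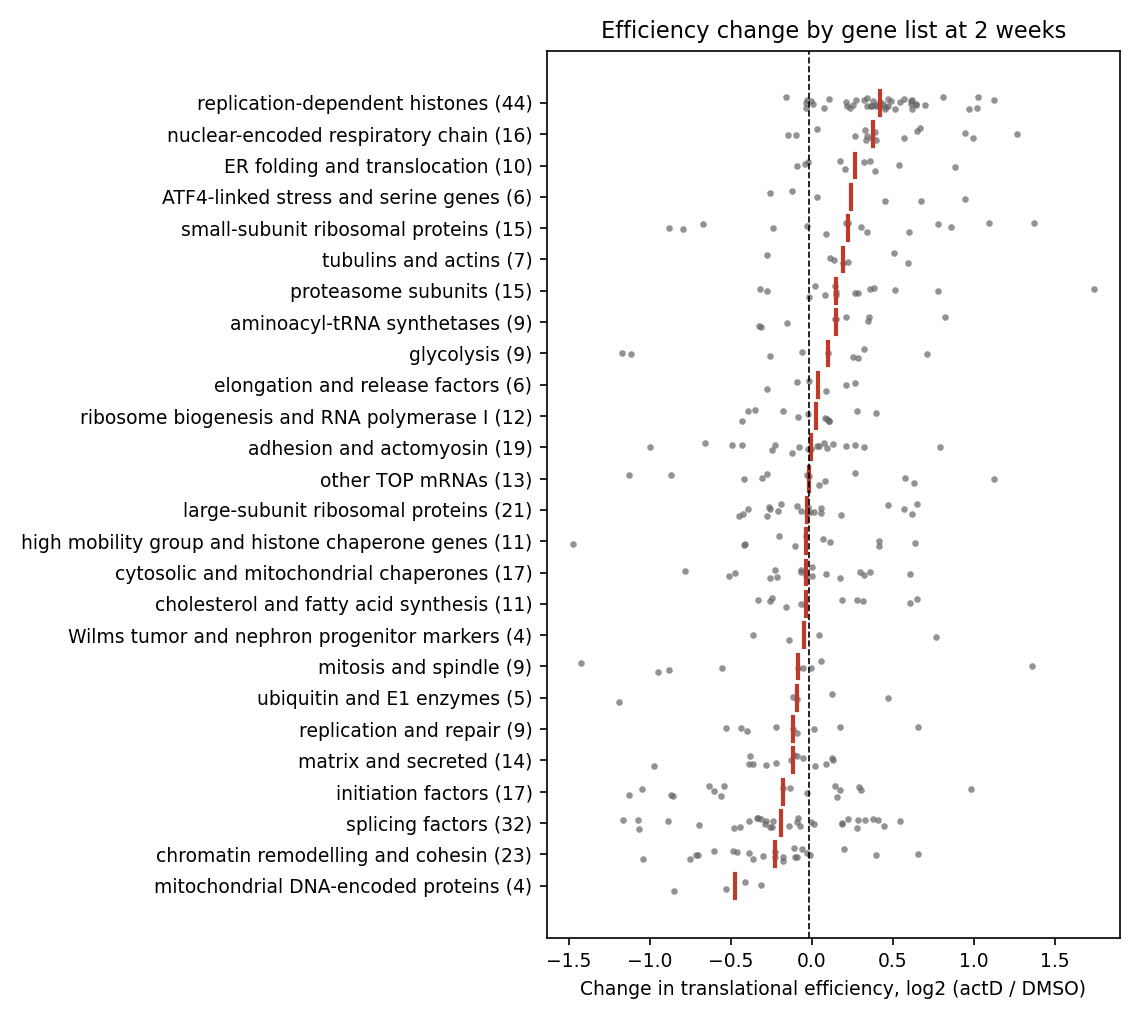
Efficiency change in log2 units (horizontal) for every tested member of the lists with at least 4 tested genes, 1 gray point per gene, red bars at the list median and the number tested in brackets. The dashed line is the median of all 1441 genes, and histones (0.42) and nuclear-encoded respiratory chain genes (0.38) stand at the top and mitochondrial DNA-encoded proteins (-0.47) at the bottom.

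Efficiency changes were ordered by coding length, a pattern noticed in these data and not fixed in advance. In the quartile of protein-coding genes with the shortest coding sequences (72 to 1020 bases, the longest annotated form), the median change was 0.19 and 220 of 333 genes were higher. It was 0.09 in the second quartile, -0.04 in the third and -0.23 in the quartile of 3174 to 26769 bases, where 72 of 331 were higher. Footprint medians ran from 0.30 to -0.32 and RNA medians from 0.10 to -0.13 over the same quartiles. Across genes, Pearson's r between log2 coding length and efficiency change was -0.31 and Spearman's rho -0.38. Quartiles of footprint depth showed medians from -0.05 to 0.00. Without histones, ribosomal proteins and respiratory chain genes, the shortest quartile still had a median of 0.14 over 245 genes.

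The length order was not uniform over libraries. For each library, the median log2 level of short genes minus that of long genes was taken, each gene relative to its mean over the 6 libraries of the assay. In footprints it was -0.23, 0.52 and 0.59 in actD replicates 1, 2 and 3, and -0.64, -0.50 and 0.24 in DMSO. Replicate 3 of DMSO thus lay on the side of actD and replicate 1 of actD among DMSO, and the groups overlapped (means 0.29 ± 0.46 and -0.30 ± 0.48, SD, n = 3; exact permutation test, two-sided, p = 0.2). In RNA it was -0.06, 0.23 and 0.19 in named actd and -0.30, -0.11 and 0.01 in named dmso, which also overlapped (exact permutation test, two-sided, p = 0.2). The difference in median efficiency change between the shortest and longest quartile was 0.42 with all libraries, 0.78 without actD replicate 1 and 0.76 without DMSO replicate 3 of the footprints, and 0.26 without DMSO replicate 1. Under the titles it was 0.86. The same 2 libraries bore on the number of genes under an unadjusted p of 0.05, which was 226 of 1793 tested without actD replicate 1 and 183 of 1900 without DMSO replicate 3 of the footprints, against 74 of 1441 with all libraries. Histones and respiratory chain genes have short and chromatin remodelers long coding sequences, and the part of length in the list medians was not tested.

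**Figure D4:**
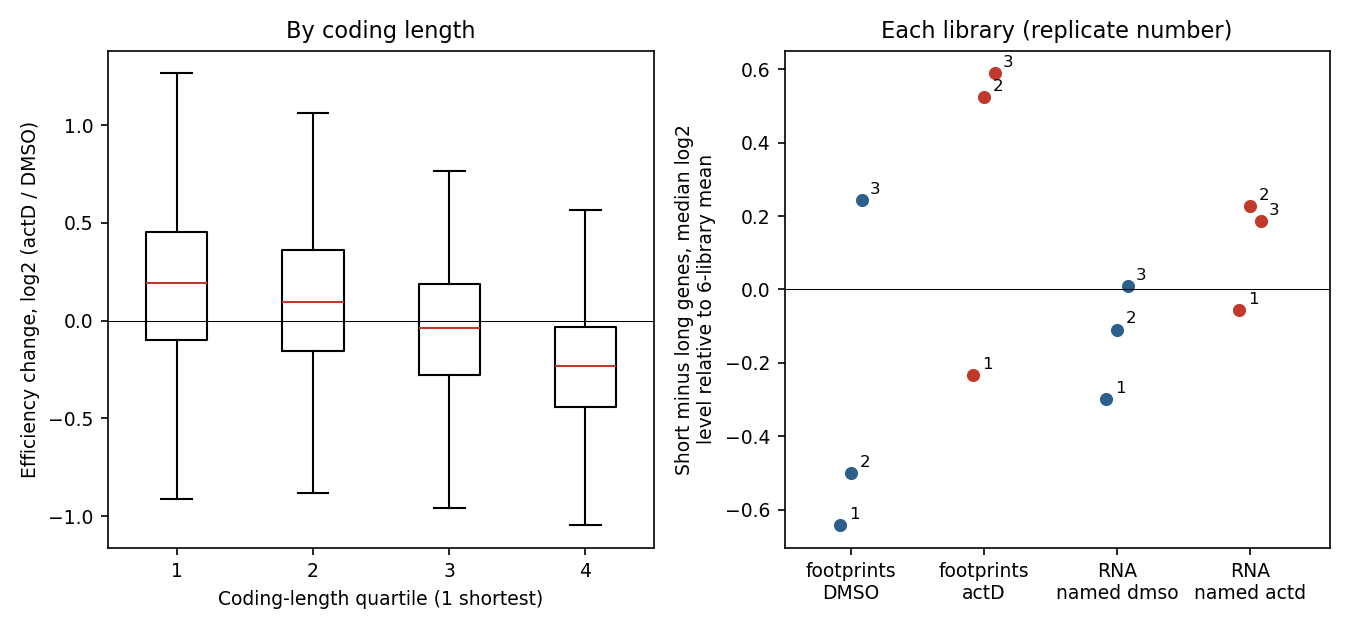
Left, efficiency change in log2 units for protein-coding genes by quartile of coding length (boxes from the lower to the upper quartile with the median in red, whiskers to the last gene within 1.5 times the box, genes beyond not drawn). Right, the short-minus-long level of each library by assay and treatment with its replicate number, where actD replicate 1 and DMSO replicate 3 of the footprints lie at -0.23 and 0.24, inside the range of the other group.

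The effect at 2 weeks was then set against that after 72 h in 2 nM actD or DMSO, a comparison that shares no library. Besides duration, the 2-week cells differed by their 2 cycles and 4 last days in plain medium, and each time has its own count tables. These differences cannot be told apart in the comparison. Of 1259 genes tested in all 4 tables, 2 (0.159%) had a different efficiency effect by edgeR's three-way interaction, and 81 (6.43%) had an unadjusted p under 0.05. Among the 2 was MOB1A, an activator of Hippo pathway kinases. It was listed at 0 in all 3 DMSO footprint libraries at 72 h against 102, 40 and 189 counts with actD. The actD mean of 230.7 CPM was 52-fold the level that 3 counts over the DMSO group would give, a level set by choice that does not bound the fold change. At 2 weeks it had 13, 19 and 14 counts in actD and 7, 15 and 15 in DMSO, and an efficiency effect of 0.19 (edgeR adjusted p of the difference 7.61e-05). The gene passed the count filter at 72 h only through the actD group, and that p is set against counts of 0, so it does not support a difference. Other genes of these tables were also listed at 0 in at least 1 footprint library and had over 30 counts in another (14 protein-coding genes at 2 weeks).

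Ribosomal protein genes had lower efficiency values at 2 weeks than at 72 h, a description of these lists with no test of the group. In the 21 large-subunit genes tested at both, the median effect was -0.03 at 2 weeks and 1.60 at 72 h, the difference was below 0 in 21 of 21, and 10 had an unadjusted p under 0.05, of which 0 were called. In 13 small-subunit genes the difference was below 0 in 12, with a median of -1.35, and 4 had an unadjusted p under 0.05. The difference for large-subunit genes had a median of -1.57, which was -1.03 without DMSO replicate 3 of the 72 h RNA. Some other lists had medians below 0 too: -1.84 for 3 proteins encoded by mitochondrial DNA, -0.93 for 6 elongation and release factors, and -0.66 for 12 other TOP genes, 9 of them lower. Over all 1259 genes, 631 differences were below 0 and the median difference was 0.00. FAU went against the rest, with 0.60 at 2 weeks and 0.22 at 72 h. Under the titles, the median difference was -1.33 for large-subunit and -1.14 for small-subunit genes. The 2-week median of the 4 tested proteins encoded by mitochondrial DNA was then 1.16, near the 1.19 of 3 such genes at 72 h. The lower value of that list at 2 weeks thus rests on the library names. Against 6 h, 0 of 796 genes (0%) were called by edgeR and 0 by DESeq2, and 37 (4.65%) had an unadjusted p under 0.05.

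**Figure D5:**
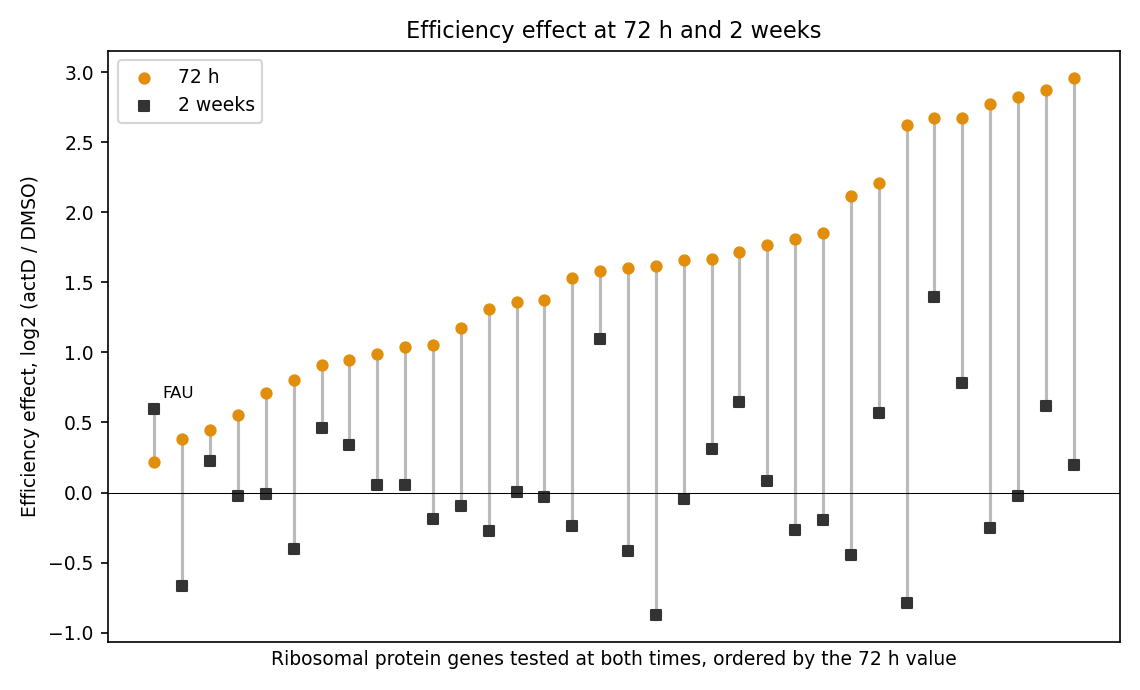
Efficiency effect of actD in log2 units for each ribosomal protein gene tested at both times (horizontal, in the order of the 72 h value, with FAU named), with 72 h as orange circles, 2 weeks as black squares and gray lines joining the values of a gene. Every gene but FAU lies lower at 2 weeks than at 72 h, and the 2-week values lie around 0.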

How the data were processed

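The deposited tables hold estimated counts per gene, made by the authors with HISAT2 and StringTie on hg38, per the submitters' processing notes. No version is given in the sources used here, and values were whole numbers. Low RNA values favored steps of 2.67 counts. Gene symbols, types and coding lengths came from GENCODE release 29 (99.42% and 99.36% of RNA and footprint IDs matched without version). Genes passing filterByExpr (minimum count 10) in both tables were kept, library sizes were their summed counts, and TMM factors were computed within each assay. edgeR 4.0.16 (R 4.3.3) tested the interaction over 12 libraries, two-sided, with Benjamini-Hochberg adjustment, and genes with an adjusted p under 0.05 are called. Within this fit, the RNA and footprint libraries of a gene shared its dispersion. Standard errors come from the fold change and its F statistic. DESeq2 1.42.0 and limma 3.58.1 were alternatives.

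The members and lists were chosen with earlier results of these data known. Named genes were every called gene, the 10 smallest p-values in each direction among protein-coding genes with a mean of at least 20 footprint counts, every tested proteasome subunit and up to 2 genes at each end of a list at that depth, of which those of the lists described are printed. TPT1, MKI67, NUMA1, HYOU1, NDUFA10, PABPC4, HIST1H2BH and the genes called under the titles were named after their values were seen. Simulated data held the 1441 genes of the efficiency comparison at 2 weeks, with 100 genes changed 2-fold and another 100 changed 4-fold at once. There, 14% of 2-fold and 76% of 4-fold changes were called, with 4 unchanged genes called. RNA and footprint counts of a gene were simulated with the same dispersion, and the shares hold for that setting only. In the data the spread could differ between assays. LDHB, for example, had 1506 ± 99.55 RNA CPM in named actd and 69.15 ± 119.8 footprint CPM in actD (SD, n = 3). The adjusted p depends on how many genes change, and the share called with fewer changed genes was not simulated. Library pairs of a group differed beyond sampling noise. Results for some genes are not reported here.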

Additional observations from a re-analysis of the deposited data

Results flagged for a closer look

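MOB1A was singled out because its actD effect on efficiency differed between 2 weeks and 72 h by a test of the difference. Its mean actD footprint level at 72 h was 52-fold the level that 3 counts over the DMSO group would give, which does not bound the fold change. The DMSO group was listed at 0 in all 3 libraries and the gene passed the count filter at 72 h only through actD, so the p of that test does not support a difference. Groups of 3 libraries were not tested for outlying samples.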

How the results depend on the processing

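The count of genes called for efficiency at 2 weeks was 0 under all alternatives except the titles (27), DESeq2 (1), a minimum count of 3 (1, ANXA2) and fits without 1 library (0 to 3; RNU11 and TGOLN2 without named dmso RNA replicate 2, JUP, PPP3R1 and SRRM1 without actD footprint replicate 1, ANKHD1 without DMSO footprint replicate 3). The 74 genes with an unadjusted p under 0.05 became 299 under the titles, 122 with library totals, 181 with a minimum count of 3 (of 4380 tested), 699 with no filter (of 13405), 22 with a mean of 30 footprint counts (of 336) and 53 to 226 without 1 library. For 2 weeks against 72 h, the 2 calls became 1 under the titles, 1 with a replicate block, 12 with DESeq2, 1 with library totals, 8 with a minimum count of 3 and 1 to 4 without 1 library, and the 81 genes became 30 with library totals, 245 with a minimum count of 3 and 68 to 125 without 1 library. Against 6 h, the 0 calls became 0 to 8 without 1 library, and the 37 genes became 79 under the titles, 23 with the replicate block, 191 with library totals, 118 with a minimum count of 3 and 21 to 104 without 1 library. RNA calls at 2 weeks became 198 with DESeq2, 6 with library totals and 2 to 10 without 1 library, while footprint calls were 0 in every alternative run. Causes of these differences were not tested.

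Same-numbered RNA and footprint libraries of a treatment had correlated deviations of 0.27, 0.25 and 0.12 in actD and 0.11, 0.033 and 0.17 in DMSO, so not all exceeded 0.1 and the numbers were not taken to pair cultures, although 5 of 6 footprint libraries followed most the RNA library of their own number. The replicate block left 0 calls and 73 genes with an unadjusted p under 0.05 at 2 weeks. A block on the number within each assay, chosen after seeing the data, also gave 0 calls.

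For 73 named genes over 25 alternatives, 1744 of 1779 values kept their direction. Under the titles it reversed for APEX1 (1.49), HEXIM1 (0.18), PSMD13 (0.29), MT-CO1 (1.07), MT-ND4 (1.20), MT-ND5 (1.45) and IGF2 (0.26). With library totals it reversed for PSMD13 (0.28) and EEF2 (0.0153), and PSMD13 was 0.0174 with a minimum count of 3 and 0.0046 with no filter. Without 1 library, values ranged from -0.15 to 0.36 for COL3A1, -0.12 to 0.94 for EEF1A1, -0.66 to 0.015 for MT-CO1, -0.00521 to 0.83 for PSMA3, -0.50 to 0.47 for PSMA6, -0.0574 to 0.40 for PSMC5, -0.15 to 0.15 for PSMD13, -0.12 to 0.32 for PSMD4, -0.13 to 0.45 for PSMD6, -0.0652 to 0.56 for PSMD7 and -0.71 to 0.03 for RPL3.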

Other observations

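Among tested protein-coding genes, 40 of 1325 were listed at 0 in at least 1 footprint library, and 14 of these had over 30 counts in another. Besides PSMB1 and LDHB they include LDHA, MDH1, CCT7, TUBA1A, SF3B1 and POLR2A. SHF was among the 5 protein-coding genes with the most footprints, with 1, 1246 and 859 counts in actD and 723, 2 and 2216 in DMSO, against 233 to 339 RNA counts. MTRNR2L12, a nuclear copy of mitochondrial ribosomal RNA that may share its reads, had the most, with 5696, 7726 and 8465 footprint counts in actD and 2448, 3591 and 3829 in DMSO, which did not overlap.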
